A study of Homo sapiens with 7 samples.

Results

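The genes of the proteasome were followed across ATAC-seq libraries of human LUHMES neurons. The members are the protein-coding genes whose RefSeq symbol is PSMA, PSMB, PSMC, PSMD, PSME, PSMF or PSMG plus a number, which gave 48 of 19974 protein-coding genes on the chromosomes kept. ATAC-seq cuts accessible DNA with the Tn5 transposase, and each library was deposited as a list of peaks, that is, of regions with more fragments than background. LUHMES is an immortalised line from human fetal mesencephalon that becomes neuron-like once tetracycline silences its v-myc transgene. All cells came from that single line, labelled wild type, and were differentiated for 6 days with 1 mM dbcAMP, 2 ng/mL GDNF and 1 µg/mL tetracycline. The stressed group (4 libraries, differentiations 6, 7, 8 and 9) received 25 µM antimycin A, which blocks respiratory complex III, together with 10 µM oligomycin, which blocks the mitochondrial ATP synthase, for 8 hours. The vehicle group (3 libraries, differentiations 6, 7 and 8) received DMSO. The 2 drugs were given only together, so their parts cannot be told apart.

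The proteasome degrades proteins tagged with ubiquitin. Its barrel-shaped core is built from rings of alpha subunits (PSMA) that gate the channel and rings of beta subunits (PSMB) that hold the cutting sites. A regulatory particle of ATPases (PSMC) and non-ATPase subunits (PSMD) binds ubiquitinated proteins, unfolds them and feeds them in. PSME genes encode alternative activators, PSMF1 an inhibitor, and PSMG1 to PSMG4, PSMD5, PSMD9 and PSMD10 chaperones that help to assemble the complex. When proteasome activity drops, the transcription factor NFE2L1 raises many of these genes together through antioxidant response elements. Neurons depend on this system to clear damaged proteins.

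The libraries differed widely in depth within both groups. The lists held 188516, 248900, 55533 and 53063 peaks in stressed 6, 7, 8 and 9, and 53398, 32828 and 159902 in vehicle 6, 7 and 8. The constant background recovered from the deposited fold enrichments was 0.816 to 5.99 fragments in stressed and 0.492 to 1.43 in vehicle libraries. Stressed 6, stressed 7 and vehicle 8 had long lists and the other 4 libraries short ones. Members were therefore read both in the deposited lists and in equal-size lists of the 32828 peaks of highest fold enrichment per library. A gene was counted when a peak lay within 1000 bp of either annotated end, and its rank is the place of its strongest such peak in the equal-size list, with 1 the highest. In the equal-size lists 3 of 9 dopaminergic markers (NR4A2, PITX3 and EN1) had a gene-end peak in all 7 libraries and 4 (TH, DDC, SLC18A2 and LMX1B) in none. In the deposited lists TH had one in 3 stressed and 0 vehicle libraries, SLC18A2 in 4 and 1, and DDC and LMX1B in 1 and 0 each. Of the 9 markers, 5 were in a larger share of stressed deposited lists, beside 35% of genes, and 0 of vehicle ones, beside 5.73%. The deposited lists differ in length. All 7 equal-size lists held the same 7 of 8 general neuronal markers and 0 of 5 immune markers. Of 5 glial markers they held 2, 3, 2 and 3 in stressed 6, 7, 8 and 9, and 1, 2 and 2 in vehicle 6, 7 and 8. OLIG2 was in all 7 lists, MBP in 4 stressed and 2 vehicle lists, and AQP4 in 2 stressed lists. Of 4 mesenchymal markers the equal-size lists held 2, 2, 1 and 2 in stressed 6, 7, 8 and 9 and 0 in each vehicle library (PDGFRB in 4 stressed and COL1A1 in 3), and the part of this in the members' results was not tested. These are bulk libraries, so fewer cells of a type and less accessible DNA per cell cannot be told apart.

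Most proteasome genes had an accessible gene end in every library, with or without the drugs. In the deposited lists 33 of 48 members (68.8%) had a gene-end peak in all 7 libraries, beside 49.8% of all protein-coding genes, and in the equal-size lists 32 members (66.7%) did, beside 46.5%. No gene-end peak was found in any deposited list for PSMA8, PSMD5, PSMF1 and PSMG4, 4 of 48 members beside 16% of all genes. In the equal-size lists PSMB6 and PSMB11 joined them, giving 6 of 48 beside 29.6%.

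The number of members with a gene-end peak overlapped between the groups. The deposited lists held 42, 43, 38 and 38 members in stressed 6, 7, 8 and 9, and 38, 35 and 43 in vehicle 6, 7 and 8. The mean was 40.25 ± 2.63 (SD, n = 4) in stressed and 38.7 ± 4.04 (SD, n = 3) in vehicle libraries, and the groups overlapped. In the equal-size lists the counts were 37, 39, 37 and 38 against 36, 35 and 39, with means of 37.75 ± 0.957 (SD, n = 4) and 36.7 ± 2.08 (SD, n = 3). The difference of 1.08 members lay within the spread of the vehicle libraries. Within short lists it was 2 members, and within long lists −1. Over all protein-coding genes the share with an equal-size gene-end peak was 60.5% to 65.0% in stressed and 54.0% to 58.9% in vehicle libraries, groups that did not overlap. A difference between the proteasome genes and all genes in this respect was not tested.

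**Figure D1:**
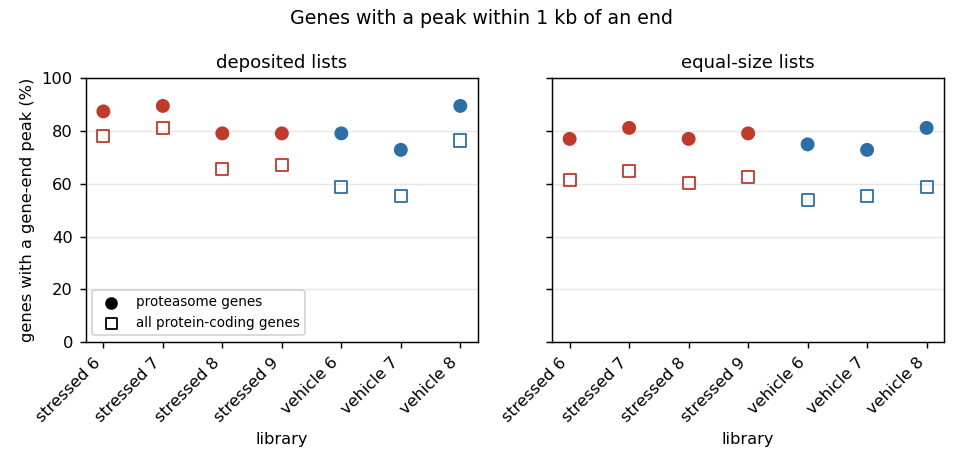
Share of genes with a peak within 1 kb of an end (vertical axis, percent) in each library (horizontal axis), for the 48 proteasome genes (filled circles) and all protein-coding genes (open squares), in deposited lists (left) and equal-size lists (right). Red marks stressed and blue vehicle libraries. The proteasome genes lie above all genes in every library, and in the deposited lists both are highest in the 3 libraries with long lists.

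Members that changed state between libraries went in both directions. In the equal-size lists a gene-end peak was more frequent in stressed libraries for 6 of the 42 members with a peak in any library (14.3%), beside 27.5% of all genes, and more frequent in vehicle libraries for 4 (9.52%), beside 6.48%. In the deposited lists the shares were 7 of 44 members (15.9%), beside 35%, and 4 of 44 (9.09%), beside 5.73%. Frequency here is the share of a group's libraries, so equal numbers of libraries count towards vehicle, the smaller group. PSMB8, in 2 stressed and 2 vehicle equal-size lists, and PSMB9, in 2 stressed and 2 vehicle deposited lists, were counted so. Fisher's exact test called 0 members after Benjamini-Hochberg adjustment over all genes, with a background of 0% called in both kinds of list. At an unadjusted p under 0.05 it called 0 members, beside 0.131% of genes in deposited and 0.84% in equal-size lists. Cytosolic ribosomal protein genes, another large set encoding 1 complex, are given for scale. In the equal-size lists 24 of 84 were more frequent in stressed and 0 in vehicle libraries, with 2 in no list. Of the mitochondrial ribosomal protein genes 21 of 77 were more frequent in stressed and 1 in vehicle libraries, with 2 in no list. Beside these stand 27.5% and 6.48% of all genes with a peak in any list, or 3860 and 911 of all 19974 genes. Differences between these sets were not tested.

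**Figure D2:**
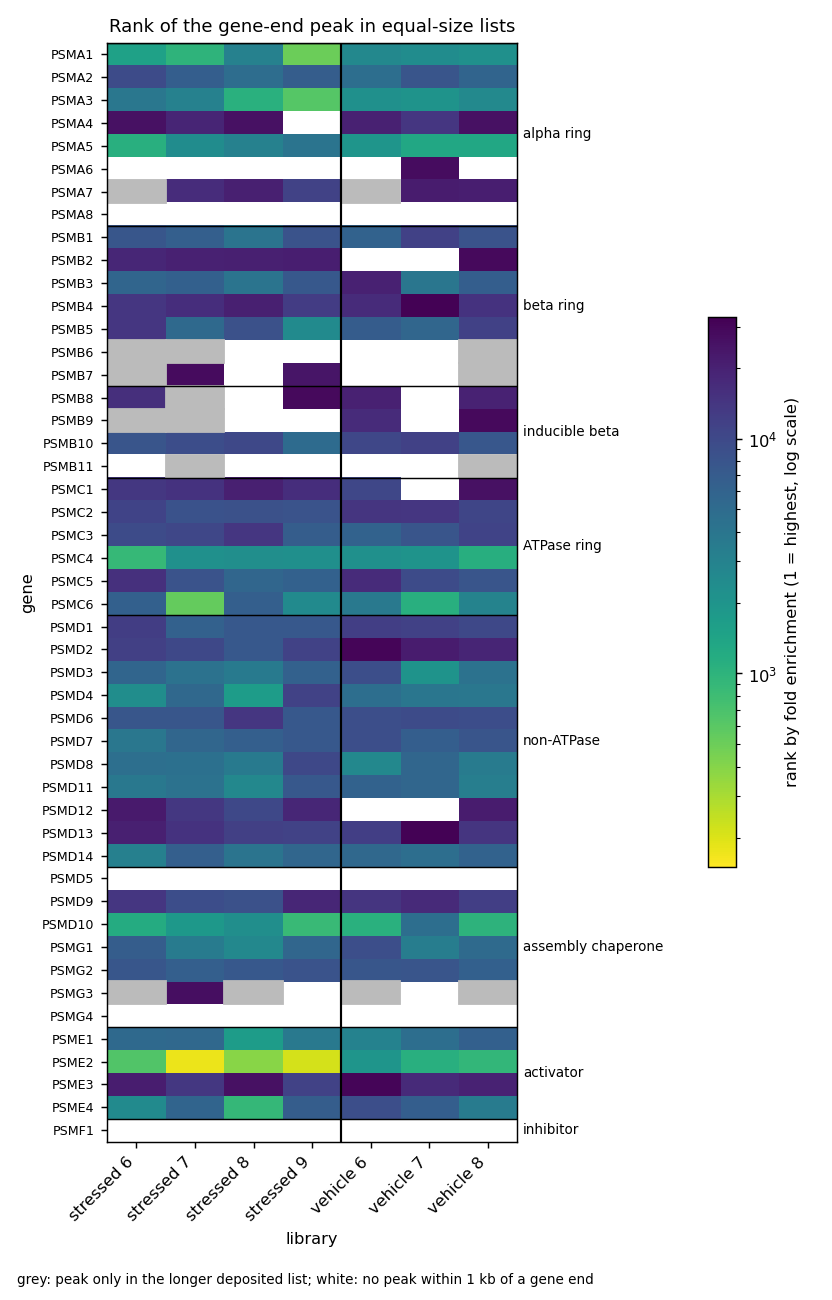
Rank of the gene-end peak of each of the 48 proteasome genes (vertical axis, grouped by role) in each library (horizontal axis), by fold enrichment in equal-size lists, on a log colour scale where yellow is strongest. Grey cells hold a peak only in the longer deposited list and white cells none within 1 kb. PSME2 is the strongest member, and the partly filled members PSMB2, PSMB7 to PSMB9 and PSMD12 carry ranks of 10105.5 (PSMD12 in stressed 8) to 28602.

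Among the members present in all 7 equal-size lists, the gene-end peaks ranked in the upper part of the lists. The median rank of these 32 members was 6492.5, 5934.75, 4420.25 and 6738 in stressed 6, 7, 8 and 9, and 7353.75, 6080.75 and 6276.5 in vehicle 6, 7 and 8. The mean of these medians was 5896 ± 1040 (SD, n = 4) in stressed and 6570 ± 685 (SD, n = 3) in vehicle libraries, and the groups overlapped. Within short lists the difference was −1138 and within long lists −36.4. All 9284 genes present in all 7 equal-size lists had medians of 5481 ± 283 (SD, n = 4) and 6582 ± 296 (SD, n = 3). The median difference per gene, stressed minus vehicle, was −810.5 ranks for the members and −748.4 for all these genes. The mean rank was nearer the top in stressed libraries for 23 of 32 members, beside 66.4% of genes.

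For 2 of the 32 members, PSMD2 and PSME2, every stressed library ranked the peak nearer the top than every vehicle library did, beside 9.2% of all genes, and for 0 members the reverse held, beside 2.21%. A share of 2 in 32 (6.25%) is below that background. An exact two-sided permutation test over the 35 assignments of the labels called 0 members after adjustment over all 9284 genes (0% of genes called). At an unadjusted p under 0.05 it called those 2 members, beside 7.55% of genes. The smallest p that 4 libraries against 3 allow is 0.0286. The count changed with the libraries used, and fewer libraries make separation easier by construction. It was 5 without stressed 6, and 4 without stressed 8, without vehicle 7 or without vehicle 8. In these settings 19.3%, 17.1%, 21.6% and 21.1% of genes did not overlap in either direction. Within short lists the count was 10, of which 8 were stronger in stressed libraries, beside 37% of genes.

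PSMD2 encodes the large scaffold subunit of the regulatory particle that docks ubiquitin shuttle proteins. The gene lies at chr3:184299241-184309050 (hg38, plus strand). The peak at its start had summit pileups of 55, 93, 15 and 18 fragments in stressed 6, 7, 8 and 9, and of 6, 7 and 31 in vehicle 6, 7 and 8. The deposited fold enrichments were 17.6, 13.4, 8.81 and 7.60, and 4.69, 4.96 and 13.1, so on this scale vehicle 8 lay among the stressed libraries. In ranks, PSMD2 stood at 11716.5, 10177, 7450 and 11329.5 in the stressed libraries and at 30213, 21867 and 18872 in the vehicle libraries. The means were 10168 ± 1927 (SD, n = 4) and 23651 ± 5877 (SD, n = 3; exact permutation p = 0.0286, Benjamini-Hochberg adjusted p = 0.378). The groups did not overlap in rank. In vehicle 6 the fold enrichment of PSMD2 was the lowest of the equal-size list, shared by 5231 peaks of that list, so its rank of 30213 is the mean rank of that tie and its place in the list rests on how ties were ordered. The widths of its peak overlapped, at 708 to 1380 bp in stressed and 526 to 969 bp in vehicle libraries.

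PSME2 encodes the beta subunit of the interferon-inducible activator that PSME1 forms with it. The gene lies at chr14:24143365-24146610 (hg38, minus strand), and its peak was the strongest of all members, with a median rank of 648.5. It ranked 648.5, 174.5, 393.5 and 214.5 in stressed 6, 7, 8 and 9, and 1971, 1101.5 and 928.5 in vehicle 6, 7 and 8. The means were 358 ± 216 (SD, n = 4) and 1334 ± 559 (SD, n = 3; exact permutation p = 0.0286, Benjamini-Hochberg adjusted p = 0.378). Every stressed library ranked it above every vehicle library. Its fold enrichments of 51.6, 44.5, 19.3 and 22.8 against 18.1, 15.5 and 46.8 overlapped between the groups. Relative to the listed start, the summit lay at −773, −478, −479 and −597 bp in the stressed and at −773, −741 and −773 bp in the vehicle libraries, where minus is upstream. An end of RNF31, a ubiquitin ligase gene, lies 265 bp from an end of PSME2, so the peak cannot be assigned to either gene. With a window of 2500 bp the rank difference was −442 in place of −976 and the groups overlapped.

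The windows around the listed starts of 6 members are shown. PSMD2 and PSME2 were chosen for their ranks. PSMD12, PSMB2 and PSMB9 were chosen for a peak that came and went, and PSMD5 for a start without a peak. Each window runs 5′ to 3′ on the strand of the gene, from 250 bases before to 50 bases from the start on (RefSeq, GRCh38.p14). The summits of the ranked PSME2 peak, at −773 to −478 bp, lay outside its window in every library. Capitals mark letters matching, on either strand, the antioxidant response element core TGACNNNGC, the CCAAT box CCAAT, the GC box GGGCGG, the ETS motif CCGGAAG or the interferon response motif, which is a pair of GAAA runs with 2 bases between them. The windows are chr3:184298991-184299290 (plus) for PSMD2, chr14:24146561-24146860 (minus) for PSME2, chr17:67366528-67366827 (minus) for PSMD12, chr1:35641477-35641776 (minus) for PSMB2, chr6:32853942-32854241 (plus) for PSMB9 and chr9:120842873-120843172 (minus) for PSMD5.
PSMD2: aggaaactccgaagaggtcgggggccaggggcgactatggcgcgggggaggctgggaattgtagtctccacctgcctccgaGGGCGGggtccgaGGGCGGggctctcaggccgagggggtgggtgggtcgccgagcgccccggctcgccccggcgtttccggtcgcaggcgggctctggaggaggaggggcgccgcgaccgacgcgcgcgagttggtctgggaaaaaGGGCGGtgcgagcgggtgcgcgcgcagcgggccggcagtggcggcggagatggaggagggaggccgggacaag
PSME2: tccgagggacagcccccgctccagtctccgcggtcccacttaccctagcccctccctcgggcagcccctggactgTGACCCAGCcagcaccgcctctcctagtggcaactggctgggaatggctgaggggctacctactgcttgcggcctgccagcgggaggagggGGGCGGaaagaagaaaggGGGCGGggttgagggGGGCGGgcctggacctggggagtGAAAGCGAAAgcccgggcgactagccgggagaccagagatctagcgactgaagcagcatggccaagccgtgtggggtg
PSMD12: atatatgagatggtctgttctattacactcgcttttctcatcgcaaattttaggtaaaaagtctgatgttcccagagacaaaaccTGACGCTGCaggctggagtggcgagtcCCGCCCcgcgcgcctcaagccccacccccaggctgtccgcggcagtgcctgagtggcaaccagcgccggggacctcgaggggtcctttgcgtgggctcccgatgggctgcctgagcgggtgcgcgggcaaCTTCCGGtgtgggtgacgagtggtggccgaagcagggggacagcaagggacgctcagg
PSMB2: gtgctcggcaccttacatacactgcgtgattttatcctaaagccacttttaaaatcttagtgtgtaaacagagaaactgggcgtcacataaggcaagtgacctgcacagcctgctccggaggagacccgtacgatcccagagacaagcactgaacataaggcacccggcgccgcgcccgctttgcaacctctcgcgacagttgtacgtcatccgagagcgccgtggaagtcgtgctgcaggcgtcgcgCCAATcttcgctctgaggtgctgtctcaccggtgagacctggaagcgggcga
PSMB9: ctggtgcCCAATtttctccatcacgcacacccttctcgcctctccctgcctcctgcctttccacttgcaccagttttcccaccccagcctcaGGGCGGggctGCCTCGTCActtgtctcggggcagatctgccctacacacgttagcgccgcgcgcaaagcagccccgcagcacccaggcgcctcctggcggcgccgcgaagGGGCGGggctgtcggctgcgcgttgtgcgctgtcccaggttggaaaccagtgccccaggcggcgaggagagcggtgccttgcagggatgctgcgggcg
PSMD5: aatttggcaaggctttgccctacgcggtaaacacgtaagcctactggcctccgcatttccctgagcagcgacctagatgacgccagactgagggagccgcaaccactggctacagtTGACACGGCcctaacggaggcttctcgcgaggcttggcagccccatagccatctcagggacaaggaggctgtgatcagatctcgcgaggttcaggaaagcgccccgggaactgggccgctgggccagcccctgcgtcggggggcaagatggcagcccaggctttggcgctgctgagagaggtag
PSMD2 carries 3 GC boxes and none of the other 4 motifs, whereas PSME2 carries 3 GC boxes, 1 antioxidant core and 1 interferon motif. PSMB9 and PSMD12 each carry 1 antioxidant core. The window of PSMD5 holds 1 antioxidant core, and that of PSMB2 holds 1 CCAAT box.

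Start windows were listed for 42 of the 48 members and for 15812 protein-coding genes. The antioxidant core was found in 13 member windows (31.0%), beside 14.4% of all windows: those of PSMB3, PSMB9, PSMC4, PSMD1, PSMD3, PSMD5, PSMD9, PSMD12, PSME1, PSME2, PSME4, PSMG1 and PSMG2. The ETS motif was found in 13 (31.0%), beside 14.2%, and the interferon motif in 6 (14.3%), beside 3.21%, those of PSMA4, PSMB4, PSMB10, PSME1, PSME2 and PSMG4. The GC box was found in 28 (66.7%), beside 58.3%, and the CCAAT box in 19 (45.2%), beside 36.4%. All motifs were searched on both strands, and matches of different motifs may overlap. The nuclear respiratory factor 1 motif GCATGCGC was in 2 member windows (4.76%, beside 4.27%), the YY1 motif ATGGCGGC in 1 (2.38%, beside 4.43%), and the C/EBP-ATF composite TGATGNAA in 1 (2.38%, beside 2.50%). The cyclic AMP element TGACGTCA was in 0 (2.56% of all windows) and the heat shock pair GAANNTTC in 0 (5.55%). Median GC content was 62% in member and 62.7% in all windows. A match to letters is a description and says nothing of binding.

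The other members are described by role, beginning with the alpha ring. PSMA1, PSMA2, PSMA3 and PSMA5 had gene-end peaks in all 7 equal-size lists. PSMA5 ranked 1091.5, 2367.5, 3075.5 and 4126 in stressed 6, 7, 8 and 9, and 1971, 1297.5 and 1292.5 in vehicle 6, 7 and 8, with overlap. In stressed 6 and vehicle 6 the ranked peak of PSMA5 was not the one at its listed start, which ranked 1118.5 and 3327. The gene-end peak of PSMA1 lies beside an end of PDE3B, 142 bp from an end of PSMA1, while its listed start is 15510 bp from the nearest annotated end. At that start PSMA1 ranked 4681.5, 2409, 1069.5 and 3374 in the stressed and 1579, 2044 and 4872.5 in the vehicle libraries. PSMA6 behaved likewise: only vehicle 7 had a gene-end peak, at rank 27312.5, whereas its listed start carried a peak in all 7 libraries. Its start ranks were 1841.5, 2409, 2276 and 3048 in stressed and 1579, 1101.5 and 2296 in vehicle libraries. PSMA4 ranked 26018, 18984 and 26013 in stressed 6, 7 and 8, was absent from stressed 9, and ranked 20228, 14023.5 and 25556.5 in vehicle libraries. PSMA7 fell outside the equal-size lists of stressed 6 and vehicle 6 and ranked 16659, 20596 and 11329.5 in stressed 7, 8 and 9, and 21867 and 20797 in vehicle 7 and 8. PSMA8, which replaces PSMA7 in proteasomes of the testis, had its nearest peak 42359 to 42613 bp from its listed start.

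In the beta ring PSMB1, PSMB3, PSMB4 and PSMB5 had gene-end peaks in all 7 equal-size lists. PSMB5, which carries the chymotrypsin-like site, ranked 14091.5, 5187.5, 8669 and 2482.5 in stressed 6, 7, 8 and 9, and 6868.5, 5560.5 and 11639 in vehicle 6, 7 and 8, so the groups overlapped. PSMB2 encodes a core beta subunit without a cutting site and lies at chr1:35599541-35641526 (hg38, minus strand). It ranked 18363, 19889.5, 20596 and 20973.5 in the stressed libraries and 28602 in vehicle 8. Vehicle 6 and vehicle 7 had no peak there, in the deposited lists either. With 4 of 4 stressed and 1 of 3 vehicle libraries, Fisher's exact p was 0.143 (adjusted p = 1). PSMB7, with the trypsin-like site, was in the equal-size lists of stressed 7 (rank 28284.5) and stressed 9 (24254.5) only, and in the deposited lists of stressed 6 and vehicle 8 as well. PSMB6, with the caspase-like site, reached only the long deposited lists of stressed 6, stressed 7 and vehicle 8, at fold enrichments of 5.03, 5.004 and 3.70.

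The inducible beta subunits replace the 3 cutting subunits in immune or interferon-treated cells. PSMB10 had gene-end peaks in all 7 libraries, at ranks of 5026.5 to 10105.5 in stressed and 7574 to 11514 in vehicle libraries. Its summits lay 933 to 1137 bp downstream of the listed start. PSMB9 lies at chr6:32854192-32859851 (hg38, plus strand), 488 bp from an end of TAP1, a peptide transporter gene. It was in the equal-size lists of 0 of 4 stressed libraries and of vehicle 6 (rank 16844.5) and vehicle 8 (28602). In the deposited lists it also had a peak in stressed 6 and stressed 7, with fold enrichments of 5.35 and 3.29 beside 6.70 in vehicle 6 and 9.86 in vehicle 8. Fisher's exact p was 0.143 in the equal-size lists (adjusted p = 1). PSMB8, on the other side of TAP1, ranked 15982.5 in stressed 6, 28420 in stressed 9, 20228 in vehicle 6 and 19802.5 in vehicle 8. The other 3 libraries did not hold it in their equal-size lists, and of these only stressed 7 had it in the deposited list, at a fold enrichment of 5.15. PSMB11, the thymus subunit, had a peak only in the deposited lists of stressed 7 and vehicle 8, at fold enrichments of 2.72 and 4.93. Of the 5 immune markers, PTPRC and AIF1 had no gene-end peak in any library. In the deposited lists CD3E had one in 2 stressed and 1 vehicle libraries, and CD74 and LYZ in 1 stressed library each.

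**Figure D3:**
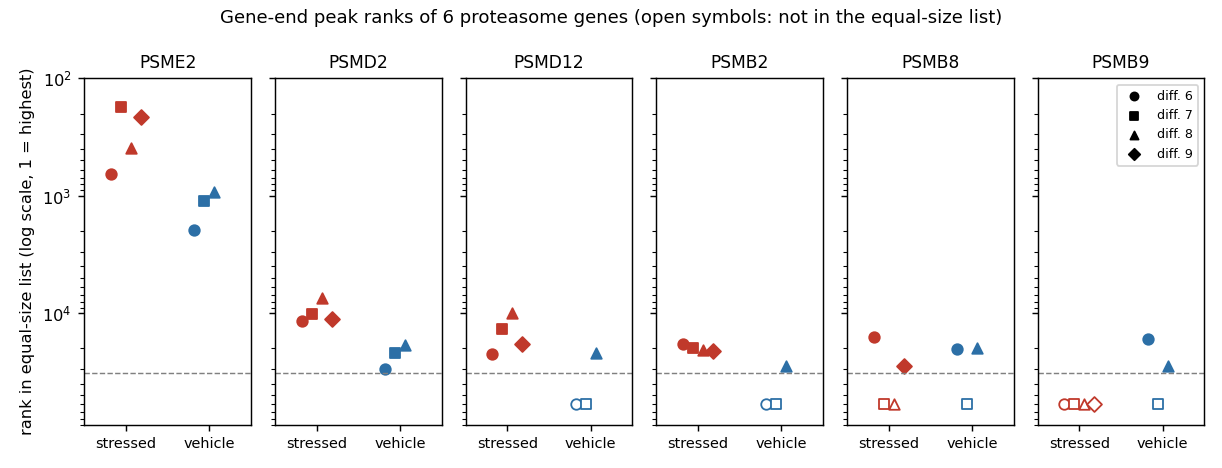
Rank in the equal-size list (vertical axis, log scale, 1 at the top) of the gene-end peaks of 6 members in stressed (red) and vehicle (blue) libraries. Each symbol is 1 library, its shape the differentiation, and open symbols under the dashed line are libraries without that peak in the list. PSME2 and PSMD2 do not overlap between groups, while PSMD12 and PSMB2 have open symbols only for vehicle 6 and vehicle 7.

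The ATPases that unfold substrates were accessible throughout, with 5 of 6 in all 7 equal-size lists. PSMC4 ranked 881, 2175.5, 2276 and 2240.5 in stressed 6, 7, 8 and 9, and 2188, 2044 and 1124 in vehicle 6, 7 and 8. PSMC1 was the exception: it ranked 13631.5, 15055, 20596 and 16116 in the stressed libraries, 10426.5 in vehicle 6 and 25556.5 in vehicle 8, and was absent from vehicle 7. In vehicle 8 the ranked peak of PSMC1 was not the one at its listed start, which ranked 26995. PSMC2 ranked 8281 to 11061 in stressed and 10725.5 to 14184.5 in vehicle libraries, which overlapped (exact permutation p = 0.0857, adjusted p = 0.506). An end of PMPCB, a subunit of the mitochondrial processing peptidase, lies 18 bp from an end of PSMC2.

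Of the 11 non-ATPase subunits, 10 had gene-end peaks in all 7 equal-size lists. PSMD14, the deubiquitinase that removes the ubiquitin chain, ranked 3130, 6470, 4096.5 and 5565.5 in stressed 6, 7, 8 and 9, and 5330, 4686 and 6041.5 in vehicle 6, 7 and 8, with overlap. PSMD11, a lid subunit, ranked 2652 to 7476 in stressed and 3273 to 6037.5 in vehicle libraries. Its ranked peak was the one at its listed start in stressed 7, 8 and 9 only. At that start PSMD11 ranked 7924, 4308, 2652 and 7476 in stressed 6, 7, 8 and 9, and 7839, 5560.5 and 6276.5 in vehicle 6, 7 and 8. PSMD12, another lid subunit, lies at chr17:67337916-67366577 (hg38, minus strand). It ranked 22189, 13634, 10105.5 and 18323.5 in the stressed libraries and 21851 in vehicle 8. As with PSMB2, vehicle 6 and vehicle 7 had no PSMD12 peak in either list (Fisher's exact p = 0.143, adjusted p = 1). These were the libraries with the lowest backgrounds, 0.492 and 0.611 fragments, and stressed 8 with 0.816 held both peaks. The part of depth in these absences was not tested.

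The assembly chaperones were divided. PSMD10, PSMD9, PSMG1 and PSMG2 had gene-end peaks in all 7 equal-size lists. PSMD10 (gankyrin) had the second strongest median rank of the members, 1205, with values of 852 to 2276 in stressed and 1004 to 4686 in vehicle libraries. PSMG3 was in the equal-size list of stressed 7 alone, at rank 26621. Its deposited fold enrichments were 7.86, 7.01 and 3.85 in stressed 6, 7 and 8, and 4.02 and 6.16 in vehicle 6 and 8. PSMG4 had no gene-end peak, but its listed start had one in all 7 libraries, at start ranks of 15005.5, 9067.5, 4744 and 18323.5 in stressed 6, 7, 8 and 9, and 24861.5, 5560.5 and 19802.5 in vehicle 6, 7 and 8. PSMD5 stood apart. The nearest peak to its listed start was 2485, 8197, 25546 and 16445 bp away in stressed 6, 7, 8 and 9, and 17645, 19789 and 2367 bp away in vehicle 6, 7 and 8, with fold enrichments of 2.43 to 5.51. Even the list of 248900 peaks had none at that start. Its window has a GC content of 62.3%.

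All 4 activators had gene-end peaks in all 7 equal-size lists. PSME1 ranked 5173, 5283.5, 1658 and 3735 in stressed 6, 7, 8 and 9, and 2982, 4686 and 6276.5 in vehicle 6, 7 and 8, so it overlapped where its partner PSME2 did not. PSME4, the activator PA200, ranked 907.5 to 6738 and 3508 to 9013. PSME3, the nuclear activator, had the weakest median rank of the 32 members, 19802.5. It ranked 21339.5, 13634, 26013 and 11329.5 in the stressed and 30213, 17353.5 and 19802.5 in the vehicle libraries, with overlap. In vehicle 6 the fold enrichment of PSME3 was the lowest of the equal-size list, shared by 5231 peaks of that list. Its rank of 30213 is thus the mean rank of that tie, and its place there rests on how ties were ordered. The inhibitor PSMF1 has 2 listed starts and had no gene-end peak, so its start at the gene end (chr20:1113263) had none. Its start inside the gene (chr20:1118602) ranked 10183, 12662, 6386.5 and 20973.5 in the stressed and 9013, 21867 and 19802.5 in the vehicle libraries.

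The peaks of the members were wider on average in stressed libraries, with overlap of the groups. The median width over the 32 members was 1289, 1674.5, 715 and 1194.5 bp in stressed 6, 7, 8 and 9, and 774, 543 and 1246 bp in vehicle 6, 7 and 8. The means were 1218 ± 395 bp (SD, n = 4) and 854 ± 358 bp (SD, n = 3), and the groups overlapped at stressed 8 and vehicle 8. Within short lists the difference was 296 bp and within long lists 175 bp. The mean width was larger in stressed libraries for 32 of 32 members, and smaller for 1.6% of all genes. The median difference was 324.5 bp for members and 400.2 bp for all 9284 genes. The narrowest medians were those of vehicle 7, stressed 8 and vehicle 6, the 3 libraries with the lowest backgrounds, and the widest that of stressed 7, with the highest. The part of depth in these widths was not tested.

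For 1 of 32 members (3.12%), PSMD13, the widths did not overlap, beside 2.33% of genes wider in stressed libraries, and for 0 members the vehicle peaks were wider, beside 0% of genes. PSMD13 encodes a lid subunit and lies at chr11:236976-252984 (hg38), with an end of SIRT3, a mitochondrial deacetylase gene, 45 bp away. Its widths were 1322, 1838, 1280 and 1246 bp in stressed 6, 7, 8 and 9, and 440, 323 and 1214 bp in vehicle 6, 7 and 8 (exact permutation p = 0.0286, adjusted p = 0.609). Vehicle 8, the deepest vehicle library, lay just under the lowest stressed value. In vehicle 7 the fold enrichment of PSMD13, 3.72, was the lowest of the list, with a summit pileup of 5 fragments. Relative to the listed start, its summit lay at −632 and −773 bp in stressed 7 and 8 and at −98 to 146 bp in the other libraries. The exact permutation test of widths called 0 members after adjustment over all 9284 genes, beside 0% of genes, and 1 member at an unadjusted p under 0.05, beside 0.926%. The count of non-overlapping widths was 7 without stressed 8, 2 without stressed 9 and 19 without vehicle 8, where 21.7%, 3.85% and 43.9% of genes did not overlap. Within short lists it was 20, beside 44.9% of genes.

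**Figure D4:**
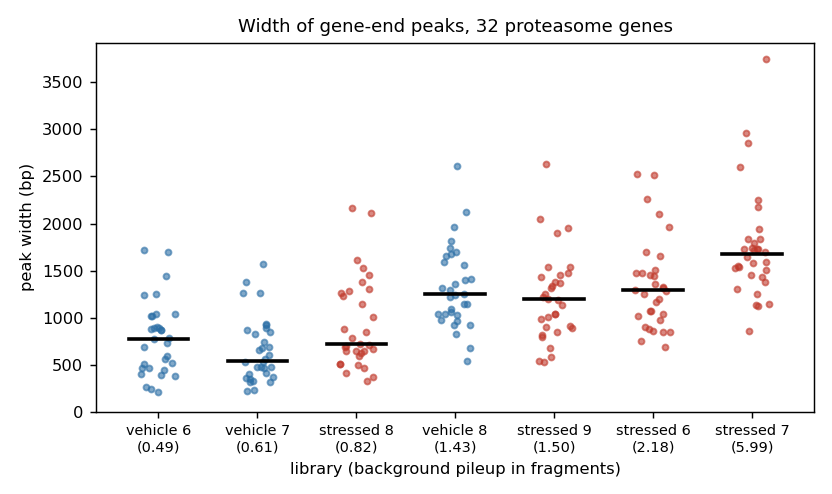
Width in bp (vertical axis) of the gene-end peaks of the 32 members present in all 7 equal-size lists, by library (horizontal axis) in order of background pileup. Points are genes, red in stressed and blue in vehicle libraries, and black bars are medians, which run from 543 bp in vehicle 7 to 1674.5 bp in stressed 7.

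The summits sat close to the starts of transcription. The median summit of the members with a peak at a listed start lay at −85 to −8 bp from that start, by library. In each library 83.8% to 92.3% of these members had the summit within 250 bp of the start, beside 69.2% to 75.7% of all genes. For 19 members an end of another protein-coding gene lies within 1000 bp, and a peak there cannot be assigned to either gene.

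Most partners of the proteasome also had accessible gene ends in every library. Of 38 genes of the wider pathway, 31 had gene-end peaks in all 7 equal-size lists (46.5% of all genes did) and 3 in none (29.6%). A peak was more frequent in stressed libraries for 2 of them, beside 27.5% of genes, and in vehicle libraries for 2, beside 6.48%. Fisher's exact test with Benjamini-Hochberg adjustment called 0 of them. All 12 partners and chaperones, among them the maturation factor POMP and the deubiquitinase USP14, were present in all 7. So were 9 of 10 delivery factors, 7 of 10 regulators and 3 of 6 genes of ubiquitin and its activating enzymes. NFE2L1, the factor that raises proteasome genes when proteasome activity drops, ranked 2386.5, 4585, 456 and 9157 in stressed 6, 7, 8 and 9, and 2418, 4686 and 3273 in vehicle 6, 7 and 8, with overlap. DDI2, the protease that activates NFE2L1, ranked 2276 to 9615.5 and 9534.5 to 11639, with overlap at 1 stressed library. KEAP1, the adaptor that retains NFE2L2, was present in 4 of 4 stressed and 2 of 3 vehicle libraries. MAFF, a small partner of NFE2L1, was the 1 of 31 pathway genes whose ranks did not overlap, beside 9.2% of genes stronger in stressed libraries. It ranked 15982.5, 13634, 16863.5 and 9157 in the stressed and 20228, 17353.5 and 28602 in the vehicle libraries. The widths of 2 of the 31, the proteasome adaptor gene ECPAS and the shuttle gene RAD23B, did not overlap and were larger in stressed libraries, beside 2.33% of genes. The exact permutation test of widths called 0 of the 31 at an unadjusted p under 0.05, beside 0.926% of genes. The part of depth in these widths was not tested either.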

How the data were processed

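ATAC-seq peak lists of 4 stressed and 3 vehicle libraries were used. Per the labels' protocols, isolated nuclei were treated with Tn5 transposase before PCR. The submitters' processing notes name Bowtie2, FastQC, Picard and hg38. Peaks were called by MACS2 separately for each library, per the file headers. Not given in the sources used here are the caller's settings, any Tn5 shift and the total reads. Settings of the caller change peak number and width.

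The deposited lists give for each peak a score, a fold enrichment (a ratio), a −log10 p-value, a −log10 q-value and the summit position, all as the authors' caller computed them. These are values of single peaks and served to rank and filter within a list. The fold enrichments equal (pileup + 1)/(background + 1) with 1 background per library, and 100% gave whole pileups within a tolerance of 0.02. The depth is otherwise unknown, and pileups carry counting error.

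Only chromosomes 1 to 22 and X entered, so 29 to 54 peaks per library were dropped. Equal-size lists held the 32828 peaks of highest fold enrichment, with 1133 to 9516 peaks tied at the limit. Gene ends came from RefSeq (GRCh38.p14, with 19974 protein-coding genes), and listed starts with strand from RefSeq promoter windows, which matched 42 of 48 members. PSMA7, PSMB1, PSMB6, PSMB7, PSMD4 and PSMG3 were not matched. A gene with several gene-end peaks was represented by the strongest, and tied peaks took their mean rank. The strongest could be a different peak in different libraries.

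Presence was compared by Fisher's exact test. Ranks and widths of genes in all 7 equal-size lists were compared by an exact two-sided permutation test over 35 assignments. P-values were adjusted over all genes by the Benjamini-Hochberg method. The scripts were tested on simulated data. Named by rule were members whose state varied, whose groups did not overlap, of highest or lowest median rank, or without a peak. Other members and pathway genes given with values are examples by role, chosen after their values were seen. Except within counts, 1 gene of the pathway lists is not reported here. The members and lists were chosen with earlier results of these data known. All libraries came from 1 line, and whether same-numbered libraries of the groups share a differentiation is not stated. The tests treated the 7 libraries as independent, so their p-values take no account of such a pairing. Python 3.11.15, numpy 2.4.6, pandas 2.3.3, scipy 1.17.1 and bedtools 2.31.1 were used.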

Additional observations from a re-analysis of the deposited data

Results flagged for a closer look

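In 68 sets of 4 stressed values (ranks, widths and counts of the members), the gap from 1 library to the nearest other, divided by the range, was above Dixon's 95% critical value in 6. About 1 in 20 such sets would pass by chance. PSMC2 ranked 11061 in stressed 6, with 8281 to 8669 in the other 3. PSMC4 ranked 881 in stressed 6, with 2175.5 to 2276 in the others. PSMD6 ranked 14051.5 in stressed 8, with 7476 to 7829 in the others. PSMD8 ranked 10159 in stressed 9, with 3544 to 4555 in the others. The peak of PSMD13 was 1838 bp wide in stressed 7, the library with the highest background, and 1246 to 1322 bp in the others. The peak of PSMD3 was 369 bp wide in stressed 8, the stressed library with the lowest background, and 1439 to 1542 bp in the others.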

How the results depend on the processing

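Fisher's exact test called 0 members in 11 alternatives, which says nothing of stability, since its smallest possible p is 0.0286 with all libraries and 0.1 or 0.0667 with 1 left out. The difference in members with a deposited gene-end peak ranged from −0.5 to 3.75, above 0 in 14 of 16 alternatives. The median width difference kept its direction in 17 alternatives (175 to 560 bp), as did the median rank difference (−1138 to −36.4). Of these alternatives, ordering by −log10 p gave exactly the main values, so it says nothing of stability. The equal-size difference of 1.08 members became 3.25 with lists of 16414 peaks and −1 in long-list libraries only. Of non-overlapping ranks (2 members), 1 was left with a window of 2500 bp, 1 with lists of 16414 peaks, which hold PSMD2 in no vehicle library, and 10 in short-list libraries only; leaving out 1 library gave 2 to 5. Of non-overlapping widths (1 member), 0 were left with lists of 16414 peaks, 20 in short-list libraries only, and leaving out 1 library gave 1 to 19. Fewer libraries make separation easier by construction. Counting either a gene end or a listed start, an alternative added after seeing the data, gave differences of 1.92 members in deposited and 1.42 in equal-size lists.

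Differentiation numbers are shared by the groups, but the sources used here do not say whether same-numbered libraries came from the same cells. Their deviations across genes had r of −0.116, 0.0217 and −0.0112 for 6, 7 and 8. These correlations cannot decide the question, since the libraries also differed in depth. Not every library correlated best with its own number, the highest r being 0.260 for stressed 6 with vehicle 8. With the replicate block, 9 of 32 members moved the same way in rank in all 3 pairs (8 stronger in stressed libraries, beside 24.5% of genes, and PSMC3 weaker, beside 7.22%) and 2 in width (wider, beside 4.87%), and the differences were 2.33 members in deposited and 1 in equal-size lists.

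Depth limits the reading of an absence: in vehicle 6 the lowest summit pileup of a member was 4 fragments and the median 13.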

Other observations

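Peaks inside the members' gene bodies, over 1000 bp from both ends and listed starts, numbered 23, 33, 9 and 4 in the deposited lists of stressed 6, 7, 8 and 9, and 5, 2 and 26 in vehicle 6, 7 and 8. Their number was high in the 3 long lists. In the equal-size lists they numbered 0, 0, 4 and 1 in stressed and 2, 2 and 3 in vehicle libraries. PSMA1 alone held 8 of the 23 in stressed 6, 13 of the 33 in stressed 7 and 9 of the 26 in vehicle 8.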
